A study of Mus musculus with 26 samples.

Results

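Imprinted genes were followed in mouse embryonic stem cells of 2 knockout genotypes of NAP1L1, a histone chaperone, and of wild-type cells, before and during differentiation. The set holds 45 genes named by symbol from knowledge of mouse imprinting, and all 45 were found among the 55471 genes of the count table. The naming rule uses no expression value, but the genes were chosen with earlier results of these data known. They comprise 26 genes known as paternally expressed and 19 known as maternally expressed, in 11 loci of more than 1 listed gene and 8 single-gene loci on 10 chromosomes. Of the 45, 12 are known to be imprinted mainly in certain tissues, such as placenta or brain. The low-count filter kept 44 of them among 18412 tested genes; Rasgrf1, a guanine nucleotide exchange factor for Ras, did not pass it, with 0 to 0.495 CPM in single libraries.

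The libraries came from KH2 cells, a mouse embryonic stem cell line, differentiated with retinoic acid and harvested at days 0, 2 and 4. The genotypes are called alphaKO (labelled NAP1L1 alpha knock-out), fullKO (labelled NAP1L1 knock-out) and WT (wild-type); what alpha stands for is not given in the sources used here. Each genotype and day had 3 libraries, except fullKO at day 0 with 2, giving 26 libraries in 9 groups. The labels do not say whether the libraries of a group came from separate cultures, and p-values therefore cover no more than the spread between libraries, which may be technical. All libraries of a knockout genotype carry the same name prefix and each genotype may be 1 clonal line, so an effect of the gene and a property of the line cannot be told apart. RNA was total RNA made into stranded poly(A) libraries, and the counts are per gene. They do not tell the parental alleles apart: "paternally expressed" and "maternally expressed" below are background classes, not measurements of these cells.

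Library totals ran between 13537267 and 20569706 counts, and mitochondrial genes took 1.08% to 2.04% of them. Nap1l1 itself had 621, 608 and 569 CPM in alphaKO, 397 and 401 CPM in fullKO and 1010, 997 and 1068 CPM in WT at day 0. It was called lower than in WT on every day. AlphaKO had log2 fold changes of -0.77, -0.47 and -0.20 at days 0, 2 and 4. Those of fullKO were -1.36, -1.23 and -0.79. CPM are each gene's counts scaled to a common library size after TMM normalization, and RPKM divide them by exon length in kilobases. Fold changes and p-values come from edgeR's quasi-likelihood test in 1 model of the 9 groups, with Benjamini-Hochberg adjustment over all 18412 genes. A gene is called at an adjusted p under 0.05, and all fold changes are log2. The median fold change of each chromosome that holds an imprinted gene of the set lay between -0.07 and 0.10 (log2) in the knockout comparisons. Chromosome 1, which holds no gene of the set, had medians of 0.27 to 0.50 in these comparisons, and the cause was not tested.

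Imprinting restricts expression of a gene to the copy inherited from the mother or from the father. The choice is carried by DNA methylation laid down in egg or sperm at imprinting control regions and kept through early development by KRAB zinc finger proteins such as ZFP57 and their cofactor TRIM28, with DNMT1 copying the marks at each division. Many paternally expressed genes start directly at a region methylated in the egg, while clusters such as Kcnq1 and Igf2r are silenced in cis by a long noncoding RNA. Several imprinted genes control growth: Igf2 promotes it, and Igf2r, Cdkn1c, Phlda2 and Grb10 limit it. Imprinted genes are known to be prone to loss of methylation in cultured embryonic stem cells; methylation was not measured in the data used here.

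A pair of start regions is shown because the difference furthest from 0 was that of Mest, and Peg3 and Usp29 start on either side of 1 short interval. The sequences are from RefSeq on GRCm38.p6, in lower case, with matches to TGCCGC on either strand (GCGGCA when read on the strand shown) in capitals; TGCCGC is the core letters of the methylated motif that ZFP57 binds. RefSeq gives Mest 3 starts. The stretch shown, chr6:30737800-30738049 on the plus strand, lies directly before the middle one and held 14 CpG and 2 matches. The window of the start further downstream overlaps it and also held 14 CpG and 2 matches. In the window of the upstream start, chr6:30733256-30733555, the 250 bases before the start held 7 CpG and 0 matches. The Peg3 stretch, chr7:6730432-6730577 on the minus strand, lies between the annotated starts of Peg3 and Usp29, which are transcribed away from each other, and held 5 CpG and 0 matches.
Mest: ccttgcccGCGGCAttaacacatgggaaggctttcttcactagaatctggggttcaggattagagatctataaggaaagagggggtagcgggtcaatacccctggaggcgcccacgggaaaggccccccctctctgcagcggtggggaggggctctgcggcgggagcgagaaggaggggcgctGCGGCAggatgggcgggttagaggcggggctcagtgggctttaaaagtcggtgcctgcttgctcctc
Peg3: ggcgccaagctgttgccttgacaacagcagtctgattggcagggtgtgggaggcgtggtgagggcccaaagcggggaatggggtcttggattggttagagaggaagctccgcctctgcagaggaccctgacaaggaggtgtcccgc
Over the 250 bases before a start, 6 of the 38 listed genes with a RefSeq window held TGCCGC (Mest, Mcts2, Copg2, Zim1, Plagl1 and Meg3), against 2660 of 27025 genes, or 9.84%, among all genes with a window. Of 10 genes led by a maternally methylated promoter that had a window, 3 held it. The windows of the imprinted genes had a median of 11.5 CpG, against 6 over all windows. A match says only that these letters are present.

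Most of the set changed over the days of retinoic acid, mainly upward. In alphaKO, 40 of 44 imprinted genes were called at day 4 against day 0, 33 higher and 7 lower, beside 76% of all genes called, 40.3% higher and 35.7% lower. Their median log2 change was 1.41, against 0.08 over all tested genes. In fullKO, 39 were called (32 higher, 7 lower; all genes 74.1% called, 39.5% higher, 34.6% lower), with a median of 1.15 against 0.10 over all genes. In WT, 37 were called (29 higher, 8 lower; all genes 77.4% called, 40.7% higher, 36.7% lower), with a median of 1.13 against 0.10. The calls of the 3 genotypes rest on separate libraries: 28 imprinted genes were called higher at day 4 in all 3 genotypes, beside 29.6% of all tested genes. Called lower in all 3 were 5, namely Snrpn, H19, Phlda2, Commd1 and Gab1, beside 26.9% of all genes.

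The largest increase in WT was that of Igf2. This fetal growth factor changed by 6.42 in alphaKO, 6.01 in fullKO and 5.19 in WT (log2, day 4 over day 0). Plagl1, a zinc finger transcription factor, changed by 5.13 in alphaKO, 4.57 in fullKO and 5.04 in WT. Peg3, a zinc finger protein, changed by 5.69 in alphaKO, 5.32 in fullKO and 4.08 in WT. H19, a maternal noncoding RNA, went the opposite way to its neighbour Igf2, with -3.13 in alphaKO, -0.70 in fullKO and -2.06 in WT. Phlda2, which restrains placental growth, had changes of -3.67 in alphaKO, -3.27 in fullKO and -3.01 in WT. All of these were called. At day 2 against day 0, 26 genes were higher and 11 lower in alphaKO, beside 68% of all genes called, 34.5% higher and 33.5% lower. FullKO had 26 higher and 11 lower (all genes 65% called, 33.5% higher, 31.4% lower), and WT 23 higher and 12 lower (all genes 70.7% called, 36.7% higher, 34% lower).

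**Figure D1:**
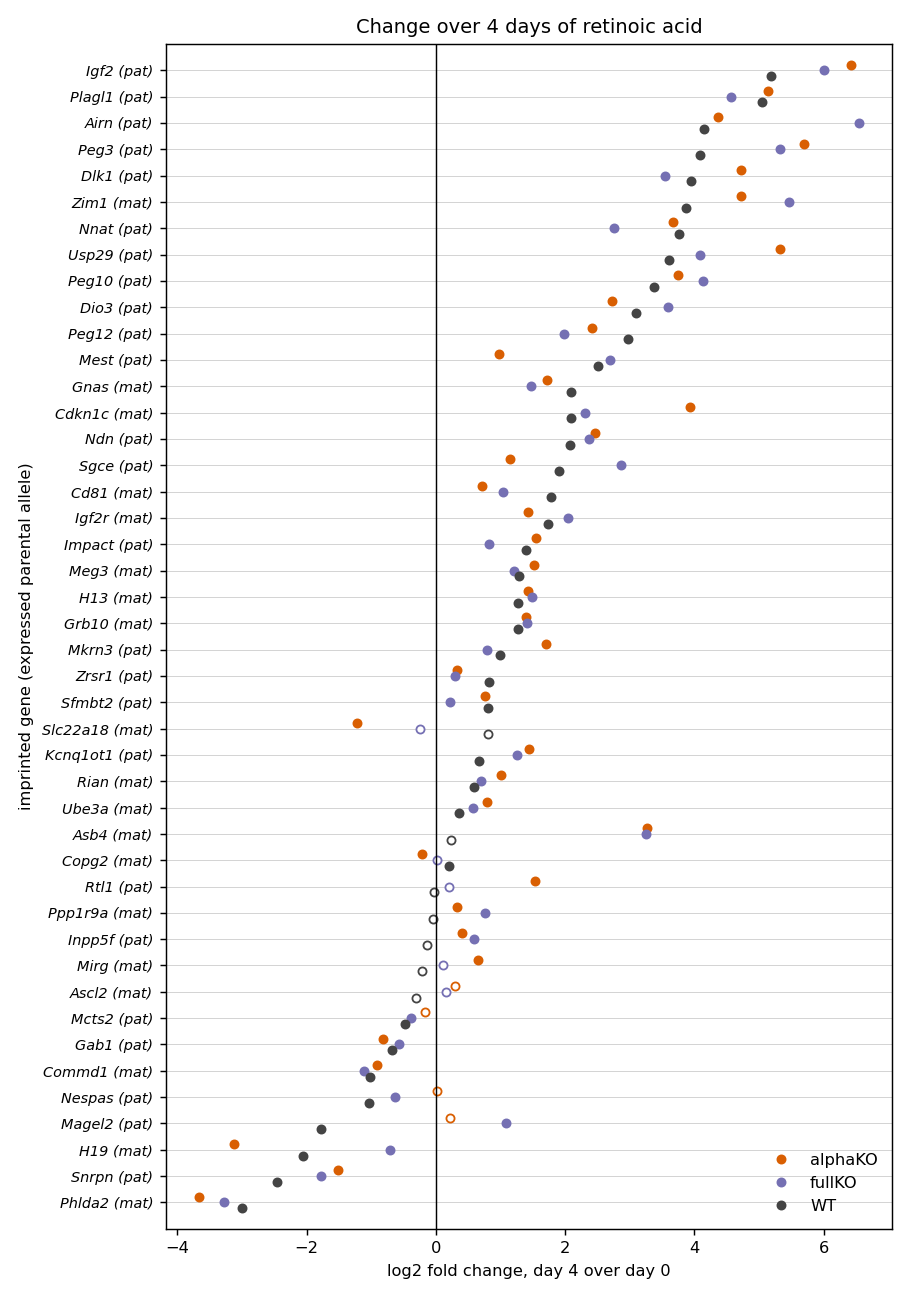
Log2 fold change of each of the 44 tested imprinted genes at day 4 over day 0, by genotype; filled points are called at an adjusted p under 0.05 and open points are not, and the bracket gives the parental allele known to be expressed. Igf2 and Plagl1 lie furthest to the right and Phlda2 furthest to the left in WT.

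Per length of exon, Gab1, a signalling adaptor imprinted in placenta, had the highest WT level at day 0, 122 RPKM, followed by Peg10 (89.6), Snrpn (66.6), H19 (58.1) and Phlda2 (57.3). At day 4 Peg10, a retrotransposon-derived gene needed for the placenta, led with 930.4 RPKM in WT, ahead of Peg3 (193), Cd81 (150.3), Nnat (115) and Grb10 (103). Usp29 and Asb4 were low at day 0, at 0.116 and 0.265 RPKM in WT.

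Among imprinted genes that were called, more were lower than higher in the knockouts, and no difference between days was tested for these counts. In alphaKO at day 0, 30 of 44 were called, 5 higher and 25 lower, beside 38.6% of all genes called, 17.7% higher and 20.9% lower; the median log2 fold change was -0.50, against -0.03 over all genes. In fullKO at day 0, 27 were called, 4 higher and 23 lower (all genes 33.9% called, 16.2% higher, 17.7% lower), with a median of -0.53 against -0.01. At day 2, alphaKO had 5 higher and 22 lower (all genes 40.2% called, 19.9% higher, 20.3% lower) and a median of -0.35 against 0.01. FullKO at day 2 had 6 higher and 26 lower (all genes 47.6% called, 23.8% higher, 23.8% lower) and a median of -0.48 against 0.02. At day 4, alphaKO had 14 higher and 18 lower (all genes 52.7% called, 28.7% higher, 24% lower) and a median of -0.02 against 0.06. FullKO at day 4 had 8 higher and 20 lower (all genes 49.6% called, 25.1% higher, 24.5% lower) and a median of -0.29 against 0.02. Both knockouts are set against the same WT libraries, so their values are given side by side and their agreement is not used as evidence.

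Markers of cell types moved with these comparisons. Of 8 embryonic stem cell genes, 6 were called higher and 1 lower in alphaKO and 5 higher and 1 lower in fullKO at day 0, and at day 4 the counts were 8 and 0 in alphaKO and 7 and 0 in fullKO. None of the 8 was at 0 in any library, including those of day 0, where they summed to 4775 to 4938 CPM in alphaKO, 4755 to 4792 CPM in fullKO and 3482 to 3592 CPM in WT. Day 4 libraries held 294 to 314 CPM in alphaKO, 417 to 440 CPM in fullKO and at most 112 CPM in WT. Of 6 primitive endoderm genes, 5 were called higher at day 4 in alphaKO and 5 in fullKO, and the sums at day 4 were 339 to 391 CPM in alphaKO, 288 to 328 CPM in fullKO and 159 to 175 CPM in WT. At day 0, 5 of them were higher in alphaKO (median 1.88), and 2 were higher and 1 lower in fullKO (median 0.60). Their day 0 sums were 38 to 43.3 CPM in alphaKO, 12.1 to 13.3 CPM in fullKO and 8.94 to 11.9 CPM in WT. Of 5 tested neural progenitor genes, 2 were higher and 3 lower at day 4 in alphaKO and 4 were lower in fullKO, and the sums over all 6 listed were 304 to 354 CPM in alphaKO, 249 to 284 CPM in fullKO and 612 to 692 CPM in WT. Of 15 fibroblast genes, 14 were called lower in alphaKO and 14 in fullKO at day 0 (medians of -0.77 in alphaKO and -3.15 in fullKO), with 1 higher in alphaKO. At day 4, 11 were lower in alphaKO (median -0.96), and 11 were lower and 1 higher in fullKO (median -0.99). At day 2 the fibroblast genes had 11 lower and 1 higher in alphaKO (median -1.60) and 14 lower in fullKO (median -3.14), and their sums were 2723 to 2839 CPM in alphaKO, 1835 to 1930 CPM in fullKO and 2917 to 3081 CPM in WT. Embryonic stem cell genes at day 2 had 7 called higher in alphaKO, with 1 lower, and 7 higher in fullKO, and summed to 659 to 693 CPM in alphaKO, 1066 to 1182 CPM in fullKO and 410 to 422 CPM in WT. Primitive endoderm genes at day 2 had 5 higher and 1 lower in each knockout, while neural progenitor genes had 1 higher and 3 lower in alphaKO and 3 lower in fullKO. Day 2 sums of the primitive endoderm genes were 332 to 376 CPM in alphaKO, 194 to 229 CPM in fullKO and 124 to 143 CPM in WT, and those of the neural progenitor genes 289.6 to 315 CPM in alphaKO, 166 to 175 CPM in fullKO and 374 to 402 CPM in WT. Over 7 trophoblast genes, day 0 libraries held 87.5 to 92.4 CPM in alphaKO, 98.5 to 112 CPM in fullKO and 43.4 to 50.7 CPM in WT, and day 4 libraries 31.4 to 35.1 CPM in alphaKO, 48.2 to 56.7 CPM in fullKO and 77.5 to 92.3 CPM in WT. Of the 5 tested, 3 were higher and 0 lower in alphaKO and 1 higher and 1 lower in fullKO at day 0, and 3 were higher and 2 lower in each knockout at day 4. At day 2 the trophoblast sums were 37.2 to 46.3 CPM in alphaKO, 62.3 to 66.9 CPM in fullKO and 60.8 to 68.1 CPM in WT, with 1 higher and 2 lower in alphaKO and 2 higher and 2 lower in fullKO. The placental lactogen gene Prl3d1 and Elf5, both defining for trophoblast, were at 0 in most libraries. The part of these differences in the imprinted genes' changes was not tested, and in these bulk libraries fewer cells of a type cannot be told apart from less RNA per cell.

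**Figure D2:**
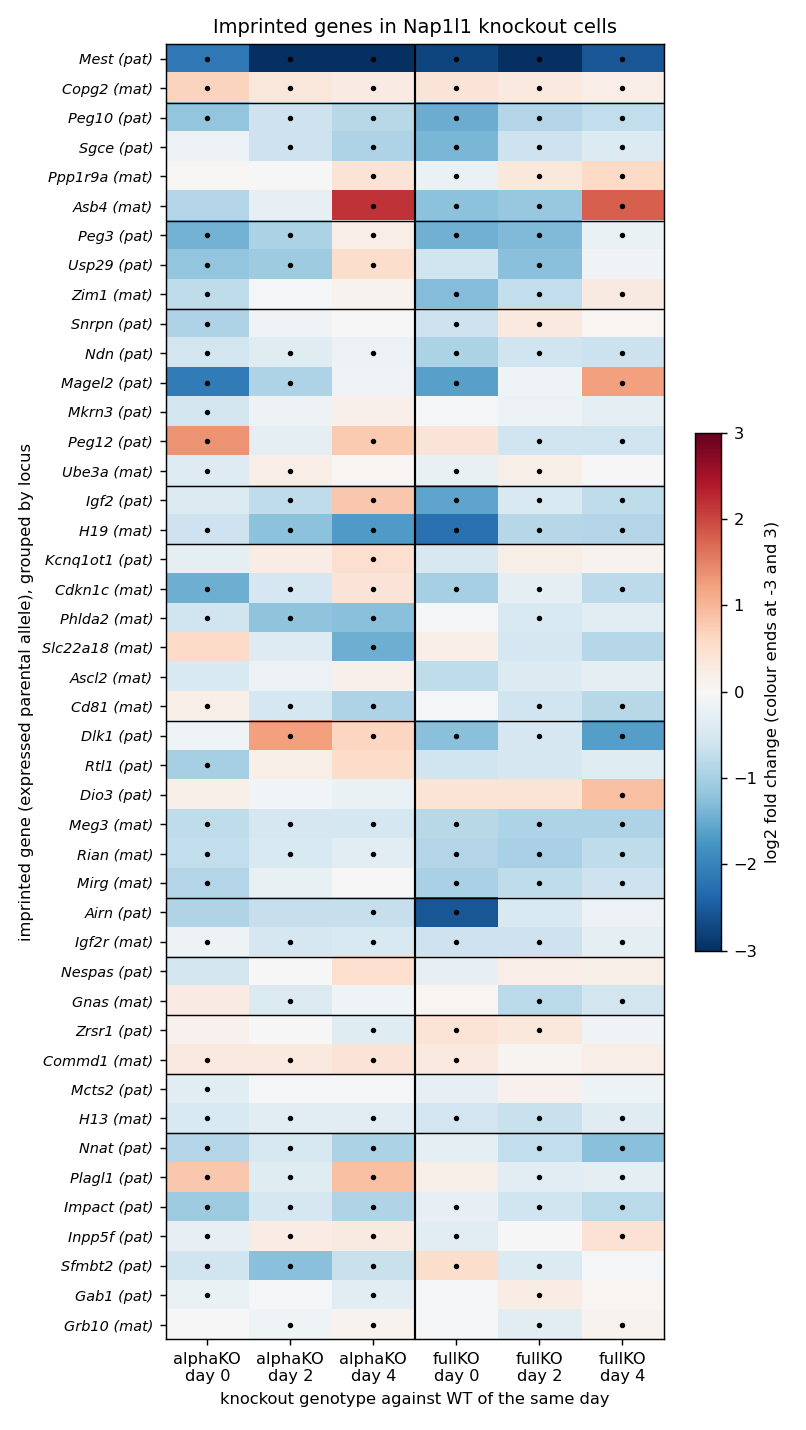
Log2 fold change of the 44 tested imprinted genes in each knockout genotype over WT of the same day, with genes in rows grouped by locus and the expressed parental allele in brackets; a dot marks an adjusted p under 0.05, and colours end at -3 and 3. Mest is lower and Copg2 higher in all 6 columns, and 14 genes are called higher in alphaKO at day 4, against 5 at day 0.

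Mest, a paternally expressed gene of the alpha/beta hydrolase fold (chr6:30723547-30748465, plus strand), showed the differences furthest from 0 in the set. Day 0 libraries held 1.104, 1.88 and 2.38 CPM in alphaKO, 1.07 and 1.32 CPM in fullKO and 8.18, 7.69 and 8.25 CPM in WT. At day 2 they held 4.68, 3.29 and 4.15 CPM in alphaKO, 8.76, 6.97 and 8.79 CPM in fullKO and 73.4, 83.6 and 76.9 CPM in WT. Day 4 levels of Mest were 3.28, 3.62 and 3.73 CPM in alphaKO, 7.36, 6.87 and 8.97 CPM in fullKO and 44.2, 44.5 and 48.8 CPM in WT. No knockout library overlapped the WT libraries of its day. The log2 fold changes in alphaKO were -2.15 (SE 0.18, adjusted p = 5.43e-14) at day 0, -4.27 (SE 0.12, adjusted p = 8.65e-30) at day 2 and -3.69 (SE 0.13, adjusted p = 3.66e-27) at day 4. In fullKO they were -2.75 (SE 0.23, adjusted p = 8.68e-14) at day 0, -3.25 (SE 0.11, adjusted p = 6.18e-28) at day 2 and -2.57 (SE 0.11, adjusted p = 1.28e-23) at day 4. Mest was higher at day 4 than at day 0 in the knockouts too, by 0.97 in alphaKO and 2.69 in fullKO at day 4, against 2.51 in WT.

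Its convergent neighbour Copg2, a subunit of the COPI vesicle coat whose maternal bias is known mainly from brain, was higher in the knockouts. Day 0 libraries held 95.4, 98.2 and 94.1 CPM in alphaKO, 80.02 and 78.5 CPM in fullKO and 60.2, 64.2 and 56.96 CPM in WT, with no overlap. The log2 fold changes were 0.67 (adjusted p = 5.59e-11), 0.34 (adjusted p = 0.00014) and 0.25 (adjusted p = 0.00224) in alphaKO for days 0, 2 and 4. FullKO had 0.39 (adjusted p = 7.14e-05), 0.29 (adjusted p = 0.000774) and 0.21 (adjusted p = 0.0102), and its libraries overlapped those of WT at day 2. Mest and Copg2 lie on opposite strands and share 912 exon bases, 23.1% of those of Mest and 17.8% of those of Copg2, and whether the counting used strand is not given in the sources used here. Of 460 genes whose exon bases all lie under exons of the other strand, 2 had at least 26 counts over all libraries together.

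In the Peg10 locus on chromosome 6, the paternally expressed pair that shares a start region, Peg10 and Sgce, had mostly lower levels, while maternally expressed Asb4 was higher at day 4. Peg10 (chr6:4747306-4760517, plus strand) had 272, 283 and 229 CPM in alphaKO, 219.9 and 207 CPM in fullKO and 570.5, 622 and 599.5 CPM in WT at day 0. At day 4, Peg10 had 3650, 3461 and 3374 CPM in alphaKO, 3852, 3703 and 3675 CPM in fullKO and 6190, 6017 and 6402 CPM in WT. Every knockout library was below every WT library of its day. Log2 fold changes at days 0, 2 and 4 came to -1.19 (SE 0.05, adjusted p = 3.24e-25), -0.62 (SE 0.04, adjusted p = 3.34e-16) and -0.83 (SE 0.04, adjusted p = 9.09e-21) in alphaKO. The fullKO values were -1.48 (SE 0.05, adjusted p = 3.75e-26), -0.87 (SE 0.04, adjusted p = 2.38e-21) and -0.73 (SE 0.04, adjusted p = 9.98e-19).

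Sgce encodes epsilon-sarcoglycan (chr6:4674350-4747207, minus strand). At day 0 it had 5.23, 6.46 and 8.53 CPM in alphaKO, 2.92 and 3.04 CPM in fullKO and 6.72, 8.18 and 8.25 CPM in WT, so fullKO lay apart from WT and alphaKO overlapped it. The fullKO difference was -1.37 (SE 0.18, adjusted p = 4.22e-08), and the alphaKO value of -0.18 (adjusted p = 0.314) was not called, though without alphaKO day 0 replicate 3 it was -0.40 with an adjusted p of 0.0276. At day 2 Sgce had 23.1, 18.3 and 19.7 CPM in alphaKO, 19.8, 20.8 and 20.6 CPM in fullKO and 32.5, 31.4 and 30.5 CPM in WT. The day 4 libraries had 15.2, 13.7 and 16.5 CPM in alphaKO, 20.9, 20.6 and 23.3 CPM in fullKO and 28.9, 29.6 and 27.8 CPM in WT. Both knockouts lay below WT on both days, with fold changes of -0.63 and -0.93 in alphaKO and -0.63 and -0.41 in fullKO, all called.

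Asb4 is a maternally expressed substrate adaptor of an E3 ubiquitin ligase (chr6:5383386-5433022, plus strand). At day 0 no library was above 1.45 CPM, with 0.29, 0.646 and 0.724 CPM in alphaKO, 0.476 and 0.396 CPM in fullKO and 0.934, 0.738 and 1.45 CPM in WT. The fullKO value of -1.22 (adjusted p = 0.0395) lost its call without WT replicate 3 (-0.93, adjusted p = 0.18) and without either fullKO library (-1.39 and -1.10, adjusted p = 0.11 and 0.188). The alphaKO value of -0.88 (adjusted p = 0.0671) was called without WT replicate 2 (-1.07, adjusted p = 0.0386) and without alphaKO replicate 3 (-1.13, adjusted p = 0.0474). At day 2 the values were 2.28, 3.07 and 3.08 CPM in alphaKO, 1.52, 1.18 and 1.895 CPM in fullKO and 2.91, 3.32 and 3.81 CPM in WT. Asb4 was then lower than WT in fullKO (-1.13, adjusted p = 0.000456) and not called in alphaKO (-0.25, adjusted p = 0.468). At day 4 it had 4.92, 7.12 and 4.24 CPM in alphaKO, 4.81, 4.7 and 3.16 CPM in fullKO and 1.38, 1.01 and 1.26 CPM in WT, both knockouts above WT with no overlap. The day 4 fold changes were 2.16 (SE 0.27, adjusted p = 3.78e-09) in alphaKO and 1.8 (SE 0.28, adjusted p = 4.21e-07) in fullKO. Ppp1r9a, which encodes the actin-binding protein neurabin and is maternally biased in placenta, was higher at day 4 by 0.41 (adjusted p = 1.96e-08) in alphaKO and 0.61 (adjusted p = 4.96e-13) in fullKO. In fullKO, Ppp1r9a was also called lower at day 0 and higher at day 2, while alphaKO was not called on these days.

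In the Peg3 locus on chromosome 7, Peg3 was lower in both knockouts at days 0 and 2. Peg3 (chr7:6703892-6730431, minus strand) had 52.01, 53.7 and 65.5 CPM in alphaKO, 55.6 and 55.3 CPM in fullKO and 142, 156 and 157 CPM in WT at day 0. Day 2 levels of Peg3 were 398, 384 and 371 CPM in alphaKO, 286, 304 and 296 CPM in fullKO and 722, 693 and 819.8 CPM in WT. At day 4, Peg3 had 2978, 2910 and 2959 CPM in alphaKO, 2329, 2247 and 2083 CPM in fullKO and 2463, 2563 and 2679 CPM in WT. The knockouts were far below WT at days 0 and 2; at day 4 alphaKO lay above WT and fullKO below it, each without overlap. Over WT, the log2 values of Peg3 at days 0, 2 and 4 were -1.41 (SE 0.06, adjusted p = 1.49e-23), -0.96 (SE 0.05, adjusted p = 1.08e-19) and 0.20 (SE 0.05, adjusted p = 0.000873) in alphaKO. Those in fullKO were -1.45 (SE 0.07, adjusted p = 1.62e-21), -1.33 (SE 0.05, adjusted p = 6.16e-25) and -0.21 (SE 0.05, adjusted p = 0.000528).

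Usp29, a ubiquitin-specific protease gene transcribed from the same start region as Peg3 in the other direction (chr7:6730578-6967219, plus strand), had 0.581, 0.94 and 1.19 CPM in alphaKO, 1.07 and 1.72 CPM in fullKO and 2.22, 1.23 and 2.84 CPM in WT at day 0. The day 2 libraries had 3.31, 2.48 and 3.51 CPM in alphaKO, 2.99, 2.45 and 2.69 CPM in fullKO and 6.87, 4.94 and 7.62 CPM in WT. At day 4 the values were 39.4, 35.8 and 35.2 CPM in alphaKO, 24.6, 25.8 and 20.4 CPM in fullKO and 23.8, 25.4 and 27.1 CPM in WT. AlphaKO was below WT at days 0 and 2 and above it at day 4; fullKO was apart from WT at day 2 only. The fold changes at days 0, 2 and 4 were -1.18 (adjusted p = 0.00106), -1.07 (adjusted p = 5.84e-06) and 0.53 (adjusted p = 0.000184) in alphaKO. In fullKO they were -0.59 (adjusted p = 0.144), -1.26 (adjusted p = 1.98e-07) and -0.11 (adjusted p = 0.482). The fullKO day 0 value was called without WT replicate 2 (-0.86, adjusted p = 0.0267). Usp29 shares 14.3% of its exon bases with Zim3 on the other strand, which had 7 counts in all libraries together.

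Zim1, a maternally expressed zinc finger gene next to Peg3 (chr7:6671269-6696450, minus strand), had 2.09, 2.82 and 3.98 CPM in alphaKO, 2.201 and 1.85 CPM in fullKO and 5.26, 4.305 and 5.61 CPM in WT at day 0. It was lower in both knockouts with no overlap, with fold changes of -0.75 (adjusted p = 0.00021) in alphaKO and -1.31 (adjusted p = 1.46e-06) in fullKO. At day 2 it was lower in fullKO (6.33, 7.95 and 7.05 CPM, against 11.6, 12.2 and 11.9 CPM in WT), while alphaKO, with 11.8, 11.4 and 10.9 CPM, was not called (-0.06, adjusted p = 0.685). At day 4 fullKO was higher, with 94.4, 86.97 and 89.2 CPM against 69.3, 75.2 and 77.96 CPM in WT (0.28, adjusted p = 0.00126), and alphaKO, with 85.8, 74.6 and 77.7 CPM, was not called (0.10, adjusted p = 0.291).

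**Figure D3:**
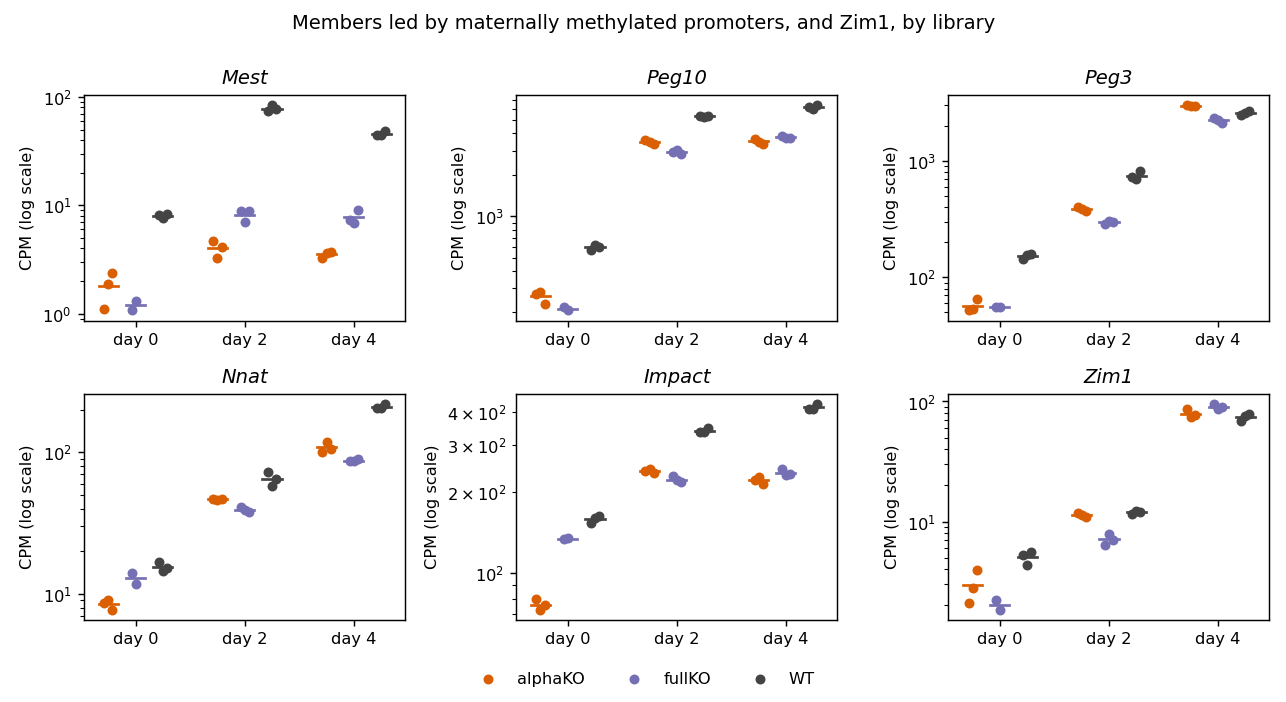
CPM of 5 paternally expressed genes led by maternally methylated promoters, and of Zim1, in every library on log axes, by day; points are libraries, bars are group means, and alphaKO, fullKO and WT run left to right. Mest, Peg10 and Impact lie below WT in both knockouts on each day, and Peg3 and Zim1 do not at day 4.

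In the Snrpn locus, the region of the Prader-Willi and Angelman syndromes, 4 of the paternally expressed genes were lower at day 0 in alphaKO and 3 in fullKO. Magel2, a MAGE family ubiquitin ligase regulator (chr7:62377010-62381640, plus strand), had 1.51, 2.17 and 1.65 CPM in alphaKO, 3.27 and 1.58 CPM in fullKO and 7.36, 7.38 and 7.99 CPM in WT at day 0. Day 2 levels of Magel2 were 3.48, 4.47 and 3.08 CPM in alphaKO, 6.38, 7.02 and 5.95 CPM in fullKO and 6.44, 6.91 and 7.75 CPM in WT. At day 4, Magel2 had 2.02, 1.97 and 2.19 CPM in alphaKO, 5.04, 5.22 and 5.36 CPM in fullKO and 2.39, 1.85 and 2.41 CPM in WT. Both knockouts were well below WT at day 0, whereas at day 4 fullKO was above WT and alphaKO overlapped it. Log2 fold changes at days 0, 2 and 4 came to -2.09 (SE 0.20, adjusted p = 6.42e-12), -0.93 (SE 0.18, adjusted p = 3.66e-05) and -0.11 (SE 0.23, adjusted p = 0.739) in alphaKO. The fullKO values were -1.62 (SE 0.22, adjusted p = 6.34e-08), -0.12 (SE 0.17, adjusted p = 0.58) and 1.23 (SE 0.20, adjusted p = 1.49e-06). The fullKO libraries of day 0 differed: without replicate 1 the value was -2.28, and without replicate 2 it was -1.21, both called.

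Peg12, a paternally expressed gene of the Frat family of GSK3-binding proteins (chr7:62461871-62464510, minus strand), ran the other way at day 0, with 4.01, 4.46 and 4.13 CPM in alphaKO, 2.201 and 2.11 CPM in fullKO and 1.52, 1.97 and 1.45 CPM in WT. The day 2 libraries had 5.54, 6.14 and 6.904 CPM in alphaKO, 5.67, 5.495 and 3.63 CPM in fullKO and 6.56, 7.58 and 8.43 CPM in WT. At day 4 the values were 20.4, 22.6 and 24.1 CPM in alphaKO, 10.4, 7.18 and 8.12 CPM in fullKO and 11.8, 14.7 and 12.5 CPM in WT. AlphaKO was above WT at days 0 and 4, and fullKO was below it at days 2 and 4. Over WT, the log2 values of Peg12 at days 0, 2 and 4 were 1.35 (adjusted p = 1.38e-06), -0.28 (adjusted p = 0.163) and 0.78 (adjusted p = 1.96e-06) in alphaKO. Those in fullKO were 0.39 (adjusted p = 0.296), -0.60 (adjusted p = 0.00155) and -0.61 (adjusted p = 0.000345). Peg12 and Magel2 were thus called in opposite directions in alphaKO at day 0 and in fullKO at day 4.

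Ndn, which encodes the MAGE protein necdin, was lower on every day, with fold changes of -0.56, -0.36 and -0.17 (days 0, 2 and 4) in alphaKO and -0.95, -0.60 and -0.65 in fullKO, all called. Snrpn, a core protein of the spliceosome, was lower at day 0, with -0.91 (adjusted p = 1.29e-19) in alphaKO and -0.62 (adjusted p = 1.72e-12) in fullKO, and higher at day 2 in fullKO (0.28, adjusted p = 4.92e-05). Snrpn shares 27.3% of its exon bases with Gm38393 and also overlaps Snurf on the same strand, which is listed at 0, so reads of these genes could have been split. Mkrn3, a RING-type E3 ligase gene, was called in alphaKO at day 0 (-0.54, adjusted p = 0.0146) and in no other knockout comparison. Ube3a, a ubiquitin ligase expressed from the maternal allele in neurons, was lower at day 0 (-0.40 in alphaKO, -0.23 in fullKO) and higher at day 2 (0.19 in alphaKO, 0.17 in fullKO), all called.

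At the H19-Igf2 locus both genes were lower in both knockouts at day 2. At day 4 H19 was again lower in both, while Igf2 was higher in alphaKO and lower in fullKO. H19 (chr7:142575529-142578143, minus strand) had 63.8, 78.8 and 134 CPM in alphaKO, 35.8 and 24.4 CPM in fullKO and 133, 161 and 134 CPM in WT at day 0. Day 2 levels of H19 were 7.303, 8.08 and 10.1 CPM in alphaKO, 9.27, 10.7 and 13.3 CPM in fullKO and 20.8, 19.6 and 19.7 CPM in WT. At day 4, H19 had 10.96, 9.26 and 11.6 CPM in alphaKO, 17.7, 16.8 and 21.1 CPM in fullKO and 33.1, 34.4 and 34.9 CPM in WT. All knockout libraries were below WT except alphaKO day 0 replicate 3, which lay within the WT range. The fold changes at days 0, 2 and 4 were -0.62 (SE 0.13, adjusted p = 0.000101), -1.23 (SE 0.20, adjusted p = 1.52e-06) and -1.69 (SE 0.18, adjusted p = 6.13e-11) in alphaKO. In fullKO they were -2.24 (SE 0.17, adjusted p = 3.35e-15), -0.86 (SE 0.19, adjusted p = 0.000166) and -0.88 (SE 0.16, adjusted p = 1.38e-05). Without alphaKO day 0 replicate 3 the alphaKO value of day 0 was -1.0, and without replicate 1 it was -0.41.

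Igf2 (chr7:142650766-142666816, minus strand) had 1.34, 2.29 and 4.34 CPM in alphaKO, 1.25 and 1.19 CPM in fullKO and 3.68, 3.94 and 3.3 CPM in WT at day 0. The day 4 libraries had 234, 231 and 236 CPM in alphaKO, 88.9, 72.8 and 75.4 CPM in fullKO and 127, 121 and 152 CPM in WT, with alphaKO above WT and fullKO below it and no overlap. At day 2 the values were 18.5, 18.6 and 19.6 CPM in alphaKO, 22.1, 24.2 and 24.4 CPM in fullKO and 37.1, 32.5 and 26.7 CPM in WT, both knockouts below WT. Log2 fold changes at days 0, 2 and 4 came to -0.42 (adjusted p = 0.178), -0.76 (adjusted p = 2.89e-07) and 0.81 (adjusted p = 1.39e-11) in alphaKO. The fullKO values were -1.57 (adjusted p = 0.000267), -0.45 (adjusted p = 0.00059) and -0.76 (adjusted p = 3.64e-10). Without alphaKO day 0 replicate 3 the alphaKO day 0 value was called, at -1.01 (adjusted p = 0.00197). Igf2 shares 62.8% of its exon bases with Gm49394 on the same strand, which is listed at 0 counts, so the Igf2 count may hold only part of its reads.

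Fibroblast genes moved with H19, Igf2 and Dlk1 at day 0. Summed over 15 fibroblast genes, the libraries held 5505 to 6983 CPM in alphaKO, 3693 to 3956 CPM in fullKO and 6194 to 7729 CPM in WT, with each of the 15 detected in every day 0 library. Without Fn1 and Sparc, which many other cells also express, the other 13 (a split chosen after their levels were seen) summed to 1543, 1681 and 2374 CPM in alphaKO, 487.9 and 322.1 CPM in fullKO, and 2883, 3838 and 3280 CPM in WT. Col1a1, a fibrillar collagen gene, alone had 339, 373 and 511 CPM in alphaKO, 100.4 and 66.97 CPM in fullKO and 644, 885 and 728 CPM in WT. The alphaKO library with the highest fibroblast sum, replicate 3, also had the highest H19, Igf2 and Dlk1 of its group. Within the 2 fullKO libraries the same order held for H19, Igf2 and Dlk1, though Igf2 had only 21 and 18 counts. In WT, replicate 2 had the highest sum and the highest H19, Igf2 and Dlk1. WT replicate 3 had less Igf2 than replicate 1 (3.3 against 3.68 CPM) despite a higher sum (3280 against 2883 CPM). At day 4 the 13 genes summed to 703 to 792 CPM in alphaKO, 614 to 655 CPM in fullKO and 1590 to 1690 CPM in WT, while Igf2 and Dlk1 were above WT in alphaKO. Whether the embryonic stem cells were grown on feeder cells is not given in the sources used here, and the part of fibroblast RNA in these day 0 values was not tested.

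**Figure D4:**
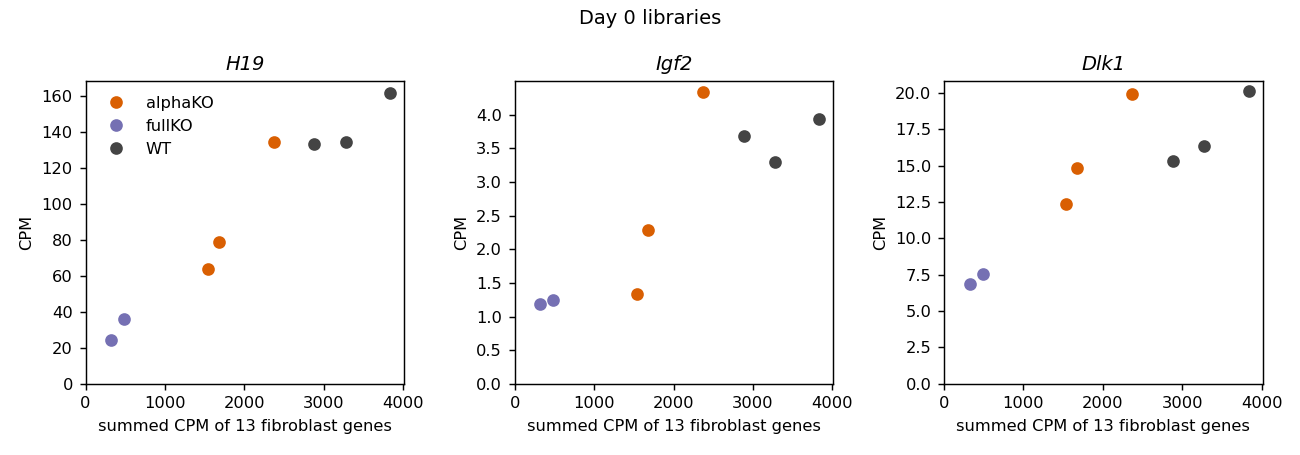
CPM of H19, Igf2 and Dlk1 at day 0 against the summed CPM of 13 fibroblast genes in the same library, 1 point per library, with linear axes that start at 0. FullKO libraries sit lowest on both axes in each panel, and alphaKO replicate 3, at 2374 CPM on the x axis, sits highest among the alphaKO libraries.

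In the Kcnq1 cluster, the maternally expressed growth inhibitors Cdkn1c and Phlda2 were both lower at days 0 and 2 in alphaKO. In fullKO, Cdkn1c was lower on both days and Phlda2 at day 2. Cdkn1c, the cyclin-dependent kinase inhibitor p57 (chr7:143458339-143461050, minus strand), had 9.76, 10.8 and 10.8 CPM in alphaKO, 13.8 and 15.2 CPM in fullKO and 26.4, 26.9 and 33.5 CPM in WT at day 0. Day 2 levels of Cdkn1c were 55.6, 57.8 and 52.1 CPM in alphaKO, 65.8, 69.2 and 61.1 CPM in fullKO and 70.9, 82.7 and 82.6 CPM in WT. At day 4, Cdkn1c had 149.8, 168 and 163 CPM in alphaKO, 75.2, 69.7 and 69.7 CPM in fullKO and 114, 123 and 129 CPM in WT. No knockout group overlapped WT; alphaKO lay above WT at day 4 and fullKO below. Over WT, the log2 values of Cdkn1c at days 0, 2 and 4 were -1.46 (SE 0.09, adjusted p = 3.27e-17), -0.51 (SE 0.07, adjusted p = 2.8e-08) and 0.39 (SE 0.06, adjusted p = 6.72e-07) in alphaKO. Those in fullKO were -1.0 (SE 0.10, adjusted p = 7.09e-11), -0.27 (SE 0.07, adjusted p = 0.000824) and -0.78 (SE 0.06, adjusted p = 5.53e-14). Gm44732 on the other strand covers 30.7% of its exon bases and had 2 counts in all.

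Phlda2 (chr7:143501545-143503150, minus strand) had 43.1, 46.2 and 38.9 CPM in alphaKO, 60.98 and 64.3 CPM in fullKO and 63.4, 69.7 and 59.7 CPM in WT at day 0. The day 2 libraries had 11.2, 10.3 and 11.7 CPM in alphaKO, 18.9, 20.2 and 16.9 CPM in fullKO and 24.5, 25.99 and 26.1 CPM in WT. At day 4 the values were 4.096, 2.79 and 3.21 CPM in alphaKO, 5.22, 6.77 and 7.39 CPM in fullKO and 10.01, 7.21 and 7.07 CPM in WT. AlphaKO was below WT on each day without overlap, with -0.59 (adjusted p = 2.03e-07) at day 0, -1.2 (adjusted p = 6.19e-13) at day 2 and -1.26 (adjusted p = 4.74e-09) at day 4. FullKO was apart from WT at day 2, with -0.45 (adjusted p = 0.000201), and not called at days 0 and 4 (-0.04, adjusted p = 0.804, and -0.31, adjusted p = 0.063). The day 4 value in fullKO was called in DESeq2 (adjusted p = 0.0373) and without WT replicate 2, WT replicate 3 or fullKO replicate 3 (adjusted p = 0.04, 0.0315 and 0.0267).

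Kcnq1ot1, the paternal noncoding RNA that silences the cluster in cis, was called in 1 knockout comparison, higher in alphaKO at day 4 (0.51, adjusted p = 0.00376). Its day 4 libraries held 31.1, 27.8 and 38.6 CPM in alphaKO, 25.4, 27.99 and 20.5 CPM in fullKO and 24.7, 20.96 and 22.8 CPM in WT. In that comparison Cdkn1c was also called higher, and Phlda2, Slc22a18 and Cd81 were called lower. Cd81, a tetraspanin imprinted in placenta, had 235, 227 and 226 CPM in alphaKO, 253, 232 and 250.2 CPM in fullKO and 432, 432 and 434 CPM in WT at day 4. It was lower in both (-0.91, adjusted p = 1.23e-18 in alphaKO and -0.82, adjusted p = 5.38e-17 in fullKO). Cd81 was also called lower in both at day 2. At day 0 it was not called in fullKO and was called higher in alphaKO. The alphaKO libraries of day 0, at 118.8 to 161.8 CPM, overlapped those of WT, at 121.7 to 131.5 CPM. Slc22a18, an organic cation transporter family gene, was below 2 CPM in every library and was called in alphaKO at day 4 (-1.45, adjusted p = 0.00547). Ascl2, a trophoblast transcription factor, stayed below 2 CPM and was called in no knockout comparison, with log2 values between -0.75 and 0.15.

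At the Dlk1-Dio3 locus on chromosome 12, the maternal noncoding RNAs Meg3 and Rian were lower in both knockouts on each day, while paternally expressed Dlk1 was called higher in alphaKO and lower in fullKO at days 2 and 4. Meg3 (chr12:109541001-109571726, plus strand) had 169.5, 117 and 176 CPM in alphaKO, 145 and 146 CPM in fullKO and 248, 232 and 304 CPM in WT at day 0. Day 4 levels of Meg3 were 448, 421 and 458 CPM in alphaKO, 347, 342 and 322 CPM in fullKO and 600.1, 644 and 660.1 CPM in WT. Every knockout library was below WT on each day, with fold changes of -0.75, -0.52 and -0.52 (days 0, 2 and 4) in alphaKO and -0.84, -0.93 and -0.91 in fullKO, all called. Rian, a noncoding RNA that hosts small nucleolar RNAs downstream of Meg3, had values of -0.73, -0.46 and -0.31 (days 0, 2 and 4) in alphaKO and -0.89, -0.97 and -0.77 in fullKO, all called. Mirg, a microRNA host RNA further downstream, was called lower in alphaKO at day 0 (-0.88, adjusted p = 2.92e-07) but not at days 2 and 4 (-0.22, adjusted p = 0.262, and -0.02, adjusted p = 0.929), and was called lower in fullKO on each day (-0.97, -0.77 and -0.63).

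Dlk1, a transmembrane protein with EGF-like repeats that acts on Notch signalling and adipogenesis (chr12:109452823-109463336, plus strand), had 12.4, 14.9 and 19.9 CPM in alphaKO, 7.56 and 6.87 CPM in fullKO and 15.3, 20.2 and 16.4 CPM in WT at day 0. At day 2, Dlk1 had 82.5, 87.1 and 83.3 CPM in alphaKO, 27.5, 25.1 and 23.9 CPM in fullKO and 37.8, 34.1 and 36.2 CPM in WT. The day 4 libraries had 404, 434 and 417 CPM in alphaKO, 85.8, 87.3 and 79.5 CPM in fullKO and 242, 253 and 299.9 CPM in WT. From day 2 on alphaKO lay above WT and fullKO below it, with no overlap, and at day 0 only fullKO was apart. The fold changes at days 0, 2 and 4 were -0.12 (SE 0.11, adjusted p = 0.418), 1.22 (SE 0.08, adjusted p = 1.21e-16) and 0.66 (SE 0.07, adjusted p = 1.67e-11) in alphaKO. In fullKO they were -1.26 (SE 0.15, adjusted p = 3.57e-09), -0.50 (SE 0.09, adjusted p = 1.48e-05) and -1.66 (SE 0.07, adjusted p = 1.55e-23). Without alphaKO day 0 replicate 3 the alphaKO day 0 value was -0.34 (adjusted p = 0.014). In alphaKO, Dlk1 was thus called higher and Meg3 and Rian lower at days 2 and 4. Dio3, the deiodinase that inactivates thyroid hormone, was called in fullKO at day 4 and higher there, with 7.88, 7.02 and 10.2 CPM against 5.15, 3.33 and 4.94 CPM in WT (0.90, adjusted p = 0.000273). AlphaKO had 4.096, 3.89 and 3.601 CPM (-0.21, adjusted p = 0.469). Rtl1, a retrotransposon-derived gene needed in placenta, was called in alphaKO at day 0 (-1.01, adjusted p = 0.00237).

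**Figure D5:**
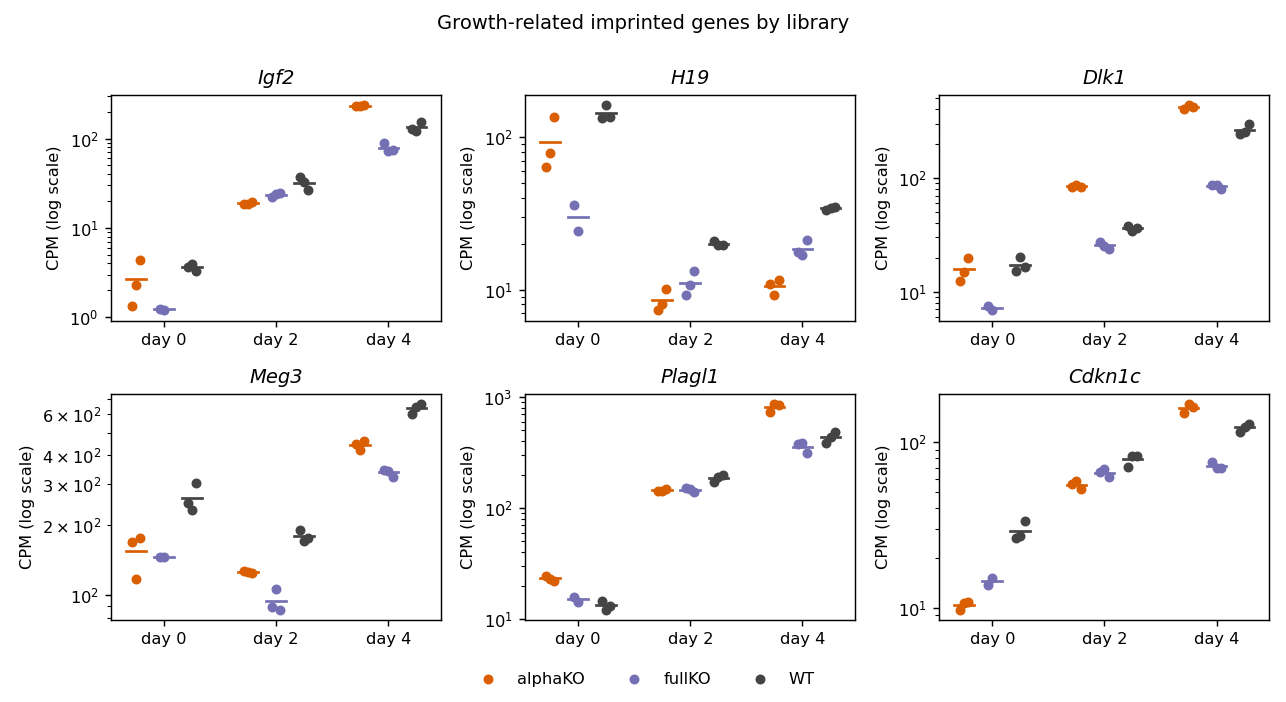
CPM of 6 growth-related imprinted genes in every library on log axes, by day; points are libraries, bars are group means, and alphaKO, fullKO and WT run left to right. At day 4 alphaKO lies above WT for Igf2, Dlk1, Plagl1 and Cdkn1c and below it for H19 and Meg3, and fullKO lies below WT for Igf2, H19, Dlk1, Meg3, Plagl1 and Cdkn1c.

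In the Igf2r locus, maternally expressed Igf2r, the receptor that takes Igf2 to lysosomes, was modestly lower. It had 695, 624 and 636 CPM in alphaKO, 729, 726 and 717 CPM in fullKO and 852, 901 and 923 CPM in WT at day 4. Its fold changes were -0.15, -0.51 and -0.45 (days 0, 2 and 4) in alphaKO and -0.62, -0.62 and -0.30 in fullKO, all called, with alphaKO overlapping WT at day 0. Airn, the paternal antisense RNA that silences Igf2r (chr17:12741311-12860136, plus strand), had 0.29, 0.294 and 1.19 CPM in alphaKO, 0.0595 and 0.33 CPM in fullKO and 0.818, 1.04 and 1.65 CPM in WT at day 0. At day 2 the values were 0.856, 1.19 and 0.701 CPM in alphaKO, 0.81, 0.785 and 1.63 CPM in fullKO and 2.04, 1.83 and 0.562 CPM in WT. Day 4 levels of Airn were 15, 11.9 and 11.6 CPM in alphaKO, 17.7, 19.6 and 17.6 CPM in fullKO and 21.5, 20.96 and 19.7 CPM in WT. Both knockouts lay below WT at day 4 and fullKO at day 0; the other groups overlapped. It was called in fullKO at day 0 (-2.58, SE 0.66, adjusted p = 0.00183) and in alphaKO at day 4 (-0.69, SE 0.17, adjusted p = 0.000827). The first rests on 1 and 5 counts in the fullKO libraries; without replicate 1 it was -1.81 and not called (adjusted p = 0.0749), and without replicate 2 it was -4.12. The second was not called by DESeq2 (adjusted p = 0.0955). Without alphaKO day 0 replicate 3 the alphaKO day 0 value of -0.91 (adjusted p = 0.0939) was -1.96 and called (adjusted p = 0.00276). Without WT day 2 replicate 3, both day 2 values were called, at -1.08 and -0.86 (adjusted p = 0.0161 and 0.0412), against -0.68 and -0.46 with all libraries.

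Gnas, the stimulatory G protein alpha subunit, was lower at day 2 in alphaKO (-0.44, adjusted p = 0.00012) and at days 2 and 4 in fullKO (-0.80, adjusted p = 7.68e-10, and -0.55, adjusted p = 2.49e-07). Its antisense neighbour Nespas, at 4.18 CPM or below in each library, was called in no knockout comparison, with log2 values between -0.55 and 0.51; 31.4% of its exon bases lie under Gnas. Commd1, a copper homeostasis gene, was called higher in alphaKO on each day (0.30, 0.28 and 0.40) and in fullKO at day 0 (0.30). Zrsr1, a splicing-factor retrogene inside Commd1, was lower in alphaKO at day 4 (-0.37, adjusted p = 0.00226), where Commd1 was higher, and higher in fullKO at days 0 and 2 (0.42 and 0.32, both called). H13, signal peptide peptidase, was lower on each day, with fold changes of -0.47, -0.34 and -0.31 (days 0, 2 and 4) in alphaKO and -0.58, -0.67 and -0.36 in fullKO, all called. Mcts2, the retrogene within H13, was called lower in alphaKO at day 0 (-0.33, adjusted p = 0.00997).

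Among genes with no listed neighbour, Nnat and Impact were lower. Nnat, the small membrane protein neuronatin (chr2:157560078-157562522, plus strand), had 8.66, 9.102 and 7.75 CPM in alphaKO, 13.98 and 11.8 CPM in fullKO and 16.7, 14.5 and 15.2 CPM in WT at day 0. At day 2, Nnat had 46.7, 45.9 and 47.04 CPM in alphaKO, 41.1, 38.9 and 37.6 CPM in fullKO and 72.4, 57.95 and 64.4 CPM in WT. The day 4 libraries had 101, 118 and 106 CPM in alphaKO, 86.1, 86.9 and 89.2 CPM in fullKO and 205, 206 and 218 CPM in WT. All knockout libraries were below all WT libraries at each day. Log2 fold changes at days 0, 2 and 4 came to -0.87 (adjusted p = 1.2e-09), -0.48 (adjusted p = 4.63e-08) and -0.95 (adjusted p = 1.24e-18) in alphaKO. The fullKO values were -0.26 (adjusted p = 0.0555), -0.73 (adjusted p = 6.79e-13) and -1.26 (adjusted p = 1.42e-22). The fullKO day 0 value lay at the threshold and was called in 10 of the other fits, at -0.42 to -0.26, among them those without fullKO replicate 1 or WT replicate 2 (adjusted p = 0.0234 and 0.0393).

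Impact, which restrains the translation kinase GCN2 (chr18:12955852-12992950, plus strand), had 79.4, 72.8 and 75.7 CPM in alphaKO, 133 and 135 CPM in fullKO and 154, 161 and 163 CPM in WT at day 0. At day 2 the values were 242, 245 and 236 CPM in alphaKO, 230.5, 222 and 218 CPM in fullKO and 338, 337 and 347 CPM in WT. Day 4 levels of Impact were 223, 228 and 214 CPM in alphaKO, 244, 232 and 235 CPM in fullKO and 411, 412 and 427 CPM in WT. Each knockout group lay below WT without overlap, and alphaKO had the lowest libraries at day 0. Over WT, the log2 values of Impact at days 0, 2 and 4 were -1.07 (SE 0.04, adjusted p = 1.41e-24), -0.50 (SE 0.04, adjusted p = 1.05e-14) and -0.91 (SE 0.04, adjusted p = 6.16e-24) in alphaKO. Those in fullKO were -0.25 (SE 0.05, adjusted p = 2.89e-05), -0.61 (SE 0.04, adjusted p = 8.99e-18) and -0.81 (SE 0.04, adjusted p = 4e-22).

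Sfmbt2, a Polycomb group protein imprinted in placenta (chr2:10370510-10595253, plus strand), had 28.1, 29.1 and 25.1 CPM in alphaKO, 59.5 and 61.3 CPM in fullKO and 41.2, 41.2 and 42.6 CPM in WT at day 0. At day 2, Sfmbt2 had 56.6, 54.2 and 63.8 CPM in alphaKO, 100.1, 99.05 and 111 CPM in fullKO and 151, 142 and 121 CPM in WT. The day 4 libraries had 47.01, 44.2 and 47.3 CPM in alphaKO, 69.2, 73.2 and 67.8 CPM in fullKO and 79.3, 74.96 and 65.5 CPM in WT. AlphaKO was below WT on each day; fullKO was above it at day 0, below it at day 2 and overlapped it at day 4. The fold changes at days 0, 2 and 4 were -0.60 (adjusted p = 2.87e-08), -1.24 (adjusted p = 7.62e-20) and -0.66 (adjusted p = 9.24e-11) in alphaKO. In fullKO they were 0.54 (adjusted p = 7.97e-07), -0.41 (adjusted p = 5.4e-07) and -0.06 (adjusted p = 0.497).

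Plagl1 (chr10:13060504-13131694, plus strand) was higher in alphaKO at day 0, with 24.6, 22.9 and 22.2 CPM against 14.5, 12.2 and 13.1 CPM in WT (0.81, adjusted p = 3.78e-08). It was also higher at day 4, with 741, 858 and 841 CPM against 386, 435 and 487 CPM in WT (0.90, adjusted p = 1.19e-16). FullKO at day 4 had 380.3, 383 and 311 CPM and was lower (-0.29, adjusted p = 0.000174), and both knockouts were lower at day 2 (-0.36 in alphaKO, -0.35 in fullKO, both called). Grb10, an adaptor that restrains insulin signalling, moved little, with called values at days 2 and 4 of -0.13 and 0.11 in alphaKO and -0.31 and 0.11 in fullKO. Gab1 was lower in alphaKO at days 0 and 4 (-0.21 and -0.34) and higher in fullKO at day 2 (0.23), all called. Inpp5f, a phosphoinositide phosphatase with an imprinted brain transcript, was lower at day 0 (-0.26 in alphaKO, -0.31 in fullKO) and higher at day 4 (0.28 in alphaKO, 0.42 in fullKO), all called.

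Both parental classes had more genes lower than higher at day 0. Of 25 tested paternally expressed genes, 2 were higher and 15 lower in alphaKO and 2 higher and 12 lower in fullKO, with medians of -0.55 in alphaKO and -0.48 in fullKO (log2; all genes -0.03 and -0.01). Of 19 maternally expressed genes, 3 were higher and 10 lower in alphaKO and 2 higher and 11 lower in fullKO, with medians of -0.45 in alphaKO and -0.58 in fullKO. The shares called were 68% (alphaKO) and 56% (fullKO) of the paternal class, and 68.4% of the maternal class in each knockout. Over all genes, 38.6% were called in alphaKO (17.7% higher, 20.9% lower) and 33.9% in fullKO (16.2% higher, 17.7% lower). At day 4 the paternal class had 8 higher and 10 lower in alphaKO and 3 higher and 11 lower in fullKO. The maternal class had 6 higher and 8 lower in alphaKO and 5 higher and 9 lower in fullKO. Day 4 shares called were 72% (alphaKO) and 56% (fullKO) of the paternal class, and 73.7% of the maternal class in each. Over all genes they were 52.7% in alphaKO (28.7% higher, 24% lower) and 49.6% in fullKO (25.1% higher, 24.5% lower). The paternal share in fullKO, and the counts of higher genes in alphaKO, thus lie near the background. Among 14 genes led by a maternally methylated promoter, 8 were lower and 1 higher in alphaKO at day 0 (median -0.89), and 7 were lower and 1 higher in fullKO (median -0.53). That is 64.3% called in alphaKO and 57.1% in fullKO, beside 38.6% and 33.9% of all genes. The 33 genes whose imprinting is not limited to certain tissues had medians of -0.62 in both knockouts at day 0. No difference between the classes was tested.

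The knockout genotypes were compared directly, which uses no WT library in the contrast. At day 0, 21 of 44 imprinted genes differed between alphaKO and fullKO, 13 higher and 8 lower in alphaKO (all genes 29% called, 14.4% higher, 14.6% lower). At day 2, 25 differed (15 higher, 10 lower; all genes 25.3% called, 13% higher, 12.3% lower), and at day 4, 29 (16 higher, 13 lower; all genes 32.7% called, 17.4% higher, 15.4% lower). Dlk1 differed most at day 4, with 404, 434 and 417 CPM in alphaKO against 85.8, 87.3 and 79.5 CPM in fullKO (2.31, SE 0.07, adjusted p = 3.13e-28). Igf2 differed by 1.57 (SE 0.09, adjusted p = 1.9e-19), Plagl1 by 1.18 (SE 0.06, adjusted p = 1.06e-19), Peg12 by 1.39 (SE 0.14, adjusted p = 2.2e-11) and Cdkn1c by 1.17 (SE 0.06, adjusted p = 3.01e-19) at day 4, all higher in alphaKO. Lower in alphaKO at day 4 were Magel2 (-1.34, adjusted p = 8.6e-07), Mest (-1.12, adjusted p = 1.08e-07), Dio3 (-1.11, adjusted p = 3.73e-05), Phlda2 (-0.95, adjusted p = 7.12e-06) and H19 (-0.81, adjusted p = 0.000872). At day 0 H19 was higher in alphaKO by 1.62 (adjusted p = 1.26e-10), Sgce by 1.19 (adjusted p = 1.69e-06), Igf2 by 1.15 (adjusted p = 0.0125) and Dlk1 by 1.13 (adjusted p = 8.15e-08), while Sfmbt2 (-1.14, adjusted p = 1.13e-14) and Impact (-0.82, adjusted p = 4.16e-18) were lower. All 15 fibroblast genes were also higher in alphaKO than in fullKO at day 0, with a median of 2.17 (log2), and their part in these differences was not tested.

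The change since day 0 also differed from that of WT for many genes of the set. To day 4, alphaKO differed from WT in 32 (21 with a higher change, 11 with a lower one; all genes 44% called, 24.2% higher, 19.7% lower), and to day 2 in 26 (15 and 11; all genes 32.2% called, 17.5% higher, 14.8% lower). FullKO differed in 22 to day 4 (14 and 8; all genes 35.2% called, 19.5% higher, 15.7% lower) and in 22 to day 2 (13 and 9; all genes 28.6% called, 15.7% higher, 12.8% lower). Peg3 and Peg10, lower at day 0, increased more than in WT, with differences of 1.61 and 0.37 in alphaKO and 1.24 and 0.76 in fullKO to day 4, all called. Mest increased less in alphaKO than in WT, with a difference of -1.54 (adjusted p = 9.87e-07), and the fullKO value was 0.18 (adjusted p = 0.678), not called.

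Imprinted genes outside the set and the factors that maintain imprints were measured as well. Of 26 tested further imprinted genes, 4 were higher and 8 lower in alphaKO at day 0, 5 and 11 at day 2, and 2 and 17 at day 4. In fullKO the counts were 3 and 10, 5 and 12, and 1 and 17. Medians at days 0, 2 and 4 were -0.15, -0.42 and -0.48 in alphaKO, while fullKO had -0.18, -0.32 and -0.42. The shares called were 46.2%, 61.5% and 73.1% in alphaKO, beside 38.6%, 40.2% and 52.7% of all genes, and 50%, 65.4% and 69.2% in fullKO, beside 33.9%, 47.6% and 49.6% of all genes, so that the day 0 share in alphaKO lies near the background. Cobl, an actin nucleator next to Grb10, stood out with 406, 435 and 399 CPM in alphaKO, 411 and 402 CPM in fullKO and 124, 130.5 and 120.5 CPM in WT at day 0, with no overlap. Its fold changes were 1.72, 1.46 and 1.54 (days 0, 2 and 4) in alphaKO and 1.7, 2.38 and 1.94 in fullKO, all called. Tnfrsf23, a decoy receptor gene, was lower in both knockouts, with -1.16, -0.91 and -2.12 (days 0, 2 and 4) in alphaKO and -2.26, -1.06 and -2.15 in fullKO, all called. Tfpi2, a serine protease inhibitor, was also lower in both, with -1.13, -1.84 and -1.95 in alphaKO and -3.86, -2.08 and -1.82 in fullKO, all called. The fullKO libraries of day 0 held 10 and 2 Tfpi2 counts. Day 4 libraries held 4, 5 and 6 in alphaKO, 3, 3 and 12 in fullKO and 15, 24 and 18 in WT.

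Of 21 imprint maintenance and DNA methylation factors, 2 were higher and 13 lower in alphaKO at day 0, 13 and 2 at day 2, and 20 and 0 at day 4. In fullKO the counts were 4 and 8, 15 and 2, and 18 and 2. Their medians at days 0, 2 and 4 were -0.24, 0.19 and 0.48 in alphaKO, while fullKO had -0.10, 0.31 and 0.41. Over all genes, alphaKO had medians of -0.03, 0.01 and 0.06 and fullKO had -0.01, 0.02 and 0.02. The factors' shares called were 71.4%, 71.4% and 95.2% in alphaKO, beside 38.6%, 40.2% and 52.7% of all genes. In fullKO they were 57.1%, 81% and 95.2%, beside 33.9%, 47.6% and 49.6% of all genes. Dppa3, which protects imprints from demethylation in the early embryo, had 5.66 ± 0.575 CPM in alphaKO (SD, n = 3), 18.8 ± 2.07 CPM in fullKO (SD, n = 2) and 52.95 ± 3.81 CPM in WT (SD, n = 3) at day 0. It was lower in both (-3.22, adjusted p = 7.18e-24 in alphaKO and -1.49, adjusted p = 1.57e-12 in fullKO). Dnmt3b, a de novo DNA methyltransferase, had 225 ± 12.6 CPM in alphaKO (SD, n = 3), 378 ± 22.8 CPM in fullKO (SD, n = 2) and 1195 ± 11.6 CPM in WT (SD, n = 3) at day 0. It was also lower in both (-2.41, adjusted p = 1.05e-36 in alphaKO and -1.66, adjusted p = 2.09e-28 in fullKO). Dnmt3l, the catalytically inactive partner of the de novo enzymes, had fold changes of -1.78 (adjusted p = 3.31e-27) in alphaKO and -1.03 (adjusted p = 3.04e-17) in fullKO. By day 4 Dppa3, Dnmt3b and Dnmt3l were called higher in both knockouts, by 2.83, 0.49 and 0.34 in alphaKO and 3.34, 0.84 and 1.36 in fullKO. Tet2, a methylcytosine dioxygenase, was higher on every day in both, with the largest values at day 2 (1.17 in alphaKO and 1.38 in fullKO). At day 0, raw Zfp57 counts were 6775, 5360 and 6465 in alphaKO, 5939 and 5274 in fullKO and 4313, 4034 and 3987 in WT. Those of Dnmt1 were 8887, 8921 and 10075 in alphaKO, 6188 and 5365 in fullKO and 9603, 8850 and 8023 in WT. Trim28 had 41379, 40994 and 43435 in alphaKO, 50741 and 43529 in fullKO and 49986, 48194 and 42810 in WT. These counts are not scaled to library size.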

How the data were processed

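Poly(A) RNA was sequenced from 26 libraries in 9 groups. The deposited table holds raw read counts per gene; per the submitters' processing notes, FastQC and STAR 2.7.1a were used with mm10. How reads were counted (tool, strand setting, annotation) is not given in the sources used here. All columns were matched to samples by title. Gene symbols, positions (GRCm38), exon lengths and exon overlaps came from GENCODE M21, which matched 55230 of 55471 gene IDs without their version and 54573 with it. Promoter windows came from RefSeq (GRCm38.p6).

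Counts were analysed with edgeR 4.0.16 (R 4.3.3): filterByExpr, TMM scaling, glmQLFit over the 9 group means without covariates (17 residual degrees of freedom; common coefficient of biological variation 0.0495) and glmQLFTest for 19 comparisons, with Benjamini-Hochberg adjustment over 18412 genes. Overlap of groups was read from TMM-scaled CPM. Replicates differed beyond sampling noise (chi-square per gene 2.31 to 6.26), so no library was treated as a duplicate. A gene was described in full where it was called with a log2 fold change of 1 or more in either direction in at least 1 of the 6 knockout against WT comparisons. It also needed a mean of 5 CPM or more in any of the 9 groups, not necessarily one of those compared. In all, 18 qualified. Up to 4 called genes of each further list were named, and these are not in every case the ones with the largest change. Exceptions, chosen after values were seen, were the examples of lesser genes within loci, and Zfp57, Trim28 and Dnmt1, given as raw counts. Library depth limits precision for genes of a few counts. Alternatives were RLE scaling, DESeq2 1.42.0, no or a stricter filter, a fit of only the groups compared, scaling without chromosomes 1, 14 and Y, a replicate block and each library left out. The fit was also run on simulated data of a simpler design, in which no gene of few counts was changed. That run does not cover such genes. Figures were drawn with matplotlib 3.10.9. The genes and lists were chosen with earlier results of these data known.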

Additional observations from a re-analysis of the deposited data

Results flagged for a closer look

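The values below are differences between groups under the same contrast among the 18 genes described in full. The first kind is the difference between a knockout and WT in the log2 change since day 0, kept where edgeR's test called it and it was at least 1 in size. Mest increased less in alphaKO than in WT, with differences of -2.12 (adjusted p = 1.64e-09) to day 2 and -1.54 (adjusted p = 9.87e-07) to day 4. Asb4 changed more than in WT to day 4, by 3.04 (adjusted p = 6.67e-07) in alphaKO and 3.02 (adjusted p = 1.3e-05) in fullKO. Its day 0 libraries held 5, 11 and 14 counts in alphaKO, 8 and 6 in fullKO and 16, 12 and 22 in WT. Peg3 changed more to day 4, by 1.61 (adjusted p = 2.32e-21) in alphaKO and 1.24 (adjusted p = 6.49e-16) in fullKO, Usp29 by 1.71 (adjusted p = 1.5e-05) in alphaKO and Zim1 by 1.59 (adjusted p = 9.41e-08) in fullKO. For Magel2 the differences were 1.15 (adjusted p = 0.000793) to day 2 and 1.98 (adjusted p = 8.24e-07) to day 4 in alphaKO, and 1.5 (adjusted p = 3.65e-05) and 2.85 (adjusted p = 1.28e-10) in fullKO. Peg12 increased less to day 2 in alphaKO, with a difference of -1.62 (adjusted p = 3.68e-06). Igf2 changed more by 1.23 (adjusted p = 0.000101) to day 4 in alphaKO and 1.13 (adjusted p = 0.0175) to day 2 in fullKO. The fullKO libraries of day 0 held 21 and 18 Igf2 counts. H19 differed by -1.07 (adjusted p = 0.000107) to day 4 in alphaKO, and by 1.38 (adjusted p = 2.38e-05) to day 2 and 1.36 (adjusted p = 6.77e-06) to day 4 in fullKO. Cdkn1c changed more to day 4 in alphaKO, by 1.85 (adjusted p = 4.03e-18), and Dlk1 to day 2 in alphaKO, by 1.35 (adjusted p = 1.37e-10). Airn differed by 2.11 (adjusted p = 0.0395) to day 2 and 2.4 (adjusted p = 0.00571) to day 4 in fullKO, where the day 0 libraries held 1 and 5 counts. Nnat increased less to day 4 in fullKO, with a difference of -1.0 (adjusted p = 7.09e-09).

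The second kind is a gene called in opposite directions against WT in the knockouts on 1 day, given with edgeR's direct test of alphaKO against fullKO. Sfmbt2 at day 0 was lower in alphaKO and higher in fullKO, which differed by -1.14 (adjusted p = 1.13e-14). Higher in alphaKO and lower in fullKO were Dlk1 at day 2, with a difference of 1.72 (adjusted p = 5.66e-21), and at day 4 Peg3 (0.41, adjusted p = 9.79e-09), Peg12 (1.39, adjusted p = 2.2e-11), Igf2 (1.57, adjusted p = 1.9e-19), Cdkn1c (1.17, adjusted p = 3.01e-19), Dlk1 (2.31, adjusted p = 3.13e-28) and Plagl1 (1.18, adjusted p = 1.06e-19). Plagl1 stands here for its opposite calls and is not among the 18. Groups had 2 or 3 libraries, too few to test any library for standing apart.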

How the results depend on the processing

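All 19 counts of imprinted genes called stayed within 1.5 times the reported count under each of 33 other settings (ratios 0.714 to 1.23). Of 108 single values (18 genes, 6 knockout comparisons), 13 changed their call in some setting and 0 reversed while called. The changes that rest on 1 library are given beside the genes. Otherwise, Asb4 in fullKO at day 0 was not called with no filter (adjusted p = 0.0719) or with only the groups compared (0.0773), Airn in alphaKO at day 4 was not called by DESeq2 (0.0955), and Nnat in fullKO at day 0 was called with RLE scaling (0.0386), the stricter filter (0.038) and DESeq2 (0.0347); the cause was not tested. With the replicate number as a block, 26 genes were called in fullKO at day 0 (27 without), 28 between alphaKO and fullKO at day 4 (29 without) and 23 for the change to day 4 in fullKO against WT (22 without), and the other counts were equal; Asb4 in fullKO at day 0 was then -1.20 (0.0502). The numbers do not pair the samples: over 100 same-numbered pairs and 9399 genes above 10 CPM, deviations from group means correlated at -0.132 to 0.146 (median 0.0015), with 3 pairs over 0.1. Depth limits Airn, Asb4 and Usp29 at day 0, Dppa3 at day 4, Tfpi2 in fullKO at day 0 and in all groups at day 4, Slc22a18, Ascl2 and Rasgrf1. FullKO at day 0 rests on 2 libraries.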
